A study of Homo sapiens with 15 samples.

Results

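The genes examined here encode the ligands and receptors of 3 guidance systems: the Eph receptors and ephrins, the Slits and Robos, and the netrins with their receptors. Members were chosen by name alone, as the protein-coding genes called EPHA or EPHB, EFNA or EFNB, ROBO1 to ROBO4, SLIT1 to SLIT3, NTN1, NTN3 and NTN4, NTNG1 and NTNG2, UNC5A to UNC5D, DCC and NEO1. That choice was made with earlier results of these data known. The rule gave 40 of the 61533 genes in the count table: 14 Eph receptors, 8 ephrins, 3 Slits, 4 Robos, 5 netrins and 6 netrin receptors. Of these, 36 passed the filter on low counts and were tested among 18391 genes. The 4 others had few counts over the 15 libraries: EPHA1 12 in 4 libraries, DCC 9 in 3 libraries, ROBO4 31 in 10 libraries and UNC5D 28 in 10 libraries.

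Guidance cues steer growing axons and migrating cells. Ephrins are bound to the cell surface and signal through Eph receptor tyrosine kinases on the neighbouring cell, and the ephrin can signal back into its own cell. Slits are secreted and mostly repel cells through Robo receptors, while secreted netrins attract through DCC and neogenin (NEO1) and repel through the UNC5 receptors. The same proteins act outside the nervous system, in blood vessels, epithelia and tumours, and in the embryonic kidney SLIT2 and ROBO2 position the ureteric bud.

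RNA-seq was run on HEK293 cells, a human embryonic kidney line that the sample labels call HEK293T, with 3 libraries in each of 5 groups. YAP-MAML2 joins part of the transcriptional coactivator YAP, which acts through TEAD proteins on DNA, to part of the Notch coactivator MAML2. The fusion keeps the MAML2 transactivation domain and the TEAD-binding domain of YAP, and it forms nuclear condensates. Cells of the SPARK-OFF line stably expressed FKBP-tagged YAP-MAML2 with Frb-tagged mCherry, and rapamycin, which ties FKBP to Frb, recruits mCherry and dissolves the condensates. The study asked which transcripts depend on the fusion and which on its condensation.

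SPARK-OFF cells given DMSO for 5 h held condensed YAP-MAML2 and are called condensed cells. SPARK-OFF cells given rapamycin for 5 h held diffuse YAP-MAML2 and are called diffuse cells. A line with the tagged fusion but no mCherry received DMSO or rapamycin for 5 h, so its fusion stays condensed under the drug. The description of its DMSO libraries says rapamycin, against their title and treatment, which were used here. Control cells expressed eGFP without the fusion and are labelled mock, with no vehicle and no duration, so a difference from them also carries DMSO or rapamycin and any difference between lines. Rapamycin also inhibits mTORC1 in any cell. The labels do not say whether the 3 libraries of a group came from separate cultures, nor whether the lines are single clones, so p-values measure the spread between these libraries, which may be technical.

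Total counts were 14720387 to 24797509 per library. MAML2, part of the transgene, was higher than in eGFP cells by 6.83 on the log2 scale in condensed cells (standard error 0.14), by 7.21 in diffuse cells (0.14) and by 5.91 in no-mCherry cells with DMSO (0.14). YAP1 and MAML2 together made up 54.6 to 59.7 counts per 1e+06 (CPM) in eGFP libraries and 342 to 842.5 CPM in the libraries of the 4 fusion groups. Replicate 3 of the no-mCherry cells with DMSO stood apart from its mates, with a scaling factor of 0.901 against 0.965 to 1.05 in the other libraries. The share of mitochondrial transcripts was lower in the SPARK-OFF line, at 2.86% to 3.33% of counts, than elsewhere, at 3.67% to 3.93%, and its part in the results below was not tested. Of 8 genes expected in this line, 7 had a mean of at least 1 CPM in every group, and the mean of PAX8 was under 0.5 CPM. Their levels differed between groups, and they summed to 502 to 537 CPM in eGFP, 1266 to 1388 in condensed and 1114 to 1123 in diffuse cells, and to 646.6 to 825.7 and 822.6 to 905 CPM in no-mCherry cells with DMSO and rapamycin. In condensed cells 3 of the 7 were higher than in eGFP cells and 4 lower, from the keratin KRT8, which rose by 4.68 on the log2 scale, to the neurofilament NEFM, which fell by 1.62, and their part in the results below was not tested. Blood and hepatocyte markers each summed to at most 0.519 CPM in any library, and neuron markers, some of which these cells express, to 15.9 to 23.8 CPM. Against eGFP cells, 2 of 5 neuron markers tested were higher and 0 lower in condensed cells, and 2 higher and 1 lower in diffuse cells. Over all genes tested, 13% were higher and 14.1% lower in condensed cells, and 11.4% and 12.5% in diffuse cells. Endothelial markers summed to 2.87 to 3.89 CPM in eGFP cells, 6.56 to 8.51 CPM in condensed cells, 6.14 to 10.1 CPM in diffuse cells, 2.93 to 5.22 CPM in no-mCherry cells with DMSO and 3.17 to 4.44 CPM in those with rapamycin, with the mean of PECAM1 and of VWF under 0.5 CPM in every group. Of 4 endothelial markers tested, 3 were higher in condensed than in eGFP cells and 0 lower, beside 13% and 14.1% of all genes. In diffuse cells 3 were higher and 1 lower, beside 11.4% and 12.5%. CDH5 had 0.125, 0 and 0.0660 CPM in eGFP and 0.867, 0.663 and 1.09 in condensed cells. TEK had 0, 0 and 0 CPM in eGFP and 0.386, 1.05 and 0.643 in condensed cells. ESAM had 1.56, 1.95 and 2.24 CPM in eGFP, 4.67, 4.97 and 3.86 in condensed and 7.96, 4.84 and 4.52 in diffuse cells. KDR went the other way, with 1.19, 1.30 and 1.52 CPM in eGFP, 0.193, 1.05 and 0.450 in condensed and 0.346, 0.272 and 0.594 in diffuse cells. The part of these markers in the values of EFNB2, UNC5B and EPHB4, which endothelium also expresses, was not tested. In bulk RNA, fewer cells with a transcript and less transcript per cell cannot be told apart.

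The promoters are shown for the 2 members that were higher in condensed cells, EPHA2 and EFNB2, and for 2 that fell, EPHA8 and SLIT2. Each run is the 250 bases before the RefSeq start site on GRCh38.p14, on the strand of the gene, and none of these bases lies in an annotated exon. EPHA2 is chr1:16156070-16156319 on the minus strand, EFNB2 is chr13:106535663-106535912 on the minus strand, EPHA8 is chr1:22563239-22563488 on the plus strand and SLIT2 is chr4:20251655-20251904 on the plus strand. Capitals mark the TEAD letters GGAATG, read here on the opposite strand.
EPHA2: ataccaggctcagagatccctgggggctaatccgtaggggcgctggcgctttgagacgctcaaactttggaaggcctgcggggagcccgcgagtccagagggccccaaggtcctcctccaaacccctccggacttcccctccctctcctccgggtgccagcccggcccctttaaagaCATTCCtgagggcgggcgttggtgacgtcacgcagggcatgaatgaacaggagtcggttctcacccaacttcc
EFNB2: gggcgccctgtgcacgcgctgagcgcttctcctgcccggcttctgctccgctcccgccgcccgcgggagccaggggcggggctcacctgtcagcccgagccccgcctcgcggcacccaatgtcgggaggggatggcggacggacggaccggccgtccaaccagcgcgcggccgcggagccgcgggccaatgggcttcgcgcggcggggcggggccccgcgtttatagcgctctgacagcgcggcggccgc
EPHA8: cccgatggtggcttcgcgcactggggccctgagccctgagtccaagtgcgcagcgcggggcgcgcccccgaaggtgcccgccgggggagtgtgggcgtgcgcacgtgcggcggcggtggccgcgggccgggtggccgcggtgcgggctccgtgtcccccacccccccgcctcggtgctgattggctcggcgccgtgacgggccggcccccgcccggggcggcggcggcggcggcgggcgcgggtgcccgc
SLIT2: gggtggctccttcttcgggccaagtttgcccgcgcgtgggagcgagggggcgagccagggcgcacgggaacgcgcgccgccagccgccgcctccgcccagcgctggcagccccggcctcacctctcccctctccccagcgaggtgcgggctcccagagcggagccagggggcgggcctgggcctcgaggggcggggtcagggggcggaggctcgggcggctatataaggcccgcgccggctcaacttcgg

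The TEAD letters of EPHA2 began at position -73, with the start site as position 0. Windows of 300 bases, which run on past the start site, were held for 33 of the 40 members, some with several start sites, giving 46 windows. UNC5D, EPHA10, UNC5B, NTN1, EFNB3, NTNG2 and NTN3 were not in the table. On either strand, GGAATG lay in 3 of the 46 windows (6.52%), those of EPHA2, NTN4 and ROBO3, and in 14.03% of 35116 windows over all genes. The AP-1 letters TGANTCA lay in 0 of the 46 and in 7.71% of all windows. TGGGAA, the letters bound by RBPJ, the DNA-binding partner of Notch and MAML proteins, lay in 16 of the 46 windows (34.8%), belonging to 14 members, and in 24.0% of all windows. UNC5C had a pair of TGGGAA matches, at positions -150 and -97, and SLIT2 had one past its start site at position 17. All 250 bases before this UNC5C start site lie in annotated exons, so both of its matches do too. No matches of different motifs overlapped in these windows. A match describes letters in a window and shows no binding. The fusion holds only part of MAML2, and whether it acts with RBPJ was not tested.

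In eGFP cells, the levels per length of the 36 tested members spanned a wide range, from SLIT2 at 51.5 ± 0.742 CPM per kilobase of exon (SD, n = 3) down to NTNG1 at 0.0850 ± 0.0223. At least 10 CPM per kilobase was reached by 7 of the 40 members and at least 1 by 24. After SLIT2 came ROBO1, its receptor, at 16.1 ± 1.22, the ephrin EFNB1 at 14.9 ± 1.40, the receptor EPHB4 at 13.2 ± 0.785 and the netrin receptor UNC5B at 12.4 ± 1.38 CPM per kilobase. SLIT2 stood clear of ROBO1, whereas neighbours from ROBO1 to UNC5B differed by less than their SDs summed. NTN1, the main netrin, had 10.3 ± 1.23 CPM per kilobase; the mean of EFNB3, at 10.1, lay within its SD.

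**Figure D1:**
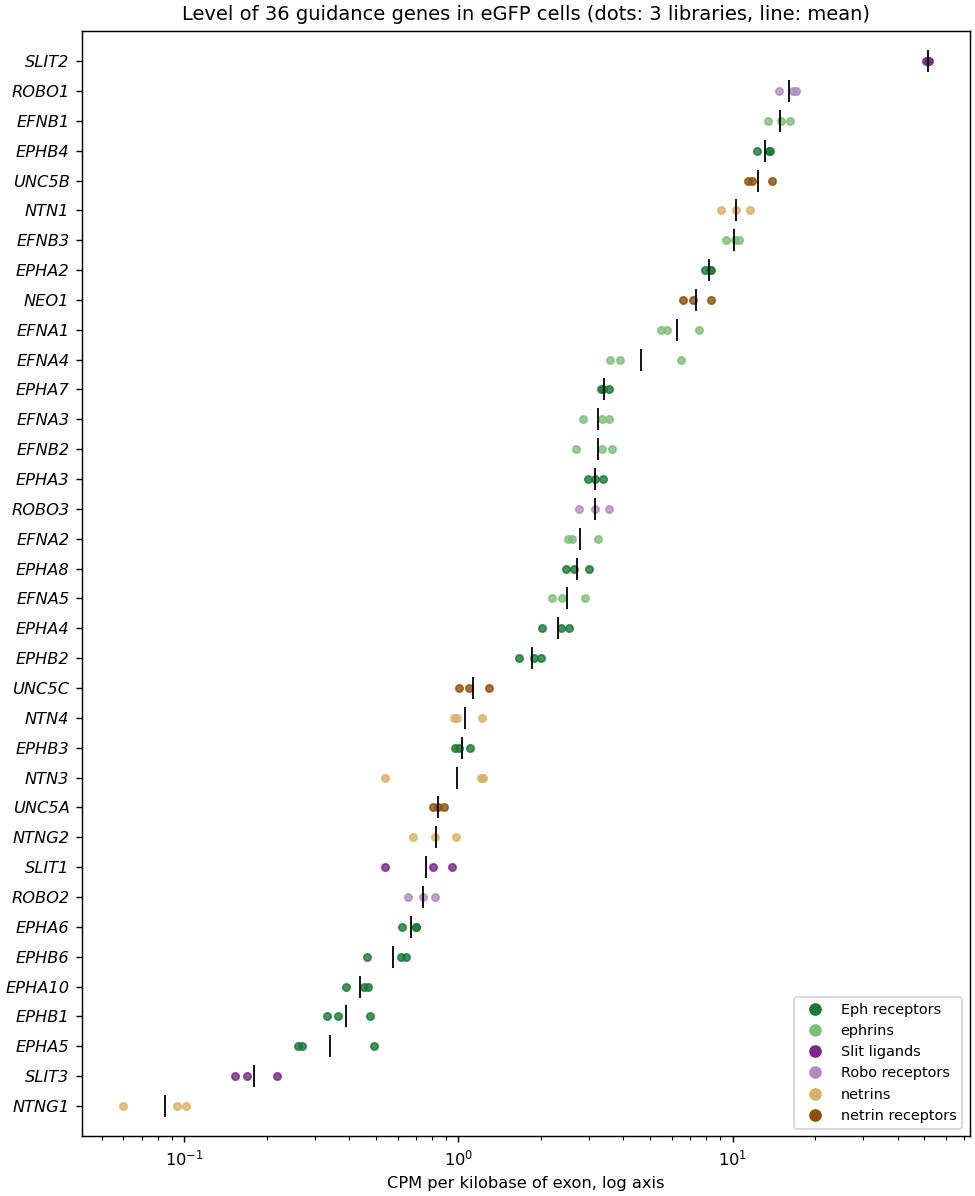
Level of the 36 tested members in eGFP cells, in CPM per kilobase of exon on a log axis, one dot per library and a line at the mean of 3, coloured by family. SLIT2 lies near 51.5, clear of ROBO1 at 16.1, and NTNG1 is lowest at 0.0850.

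Each system had at least one ligand and one receptor among these transcripts. Of the netrin receptors, NEO1 had 7.36 ± 0.894 CPM per kilobase in eGFP cells, while DCC and UNC5D were listed at 0 there. Of the Robos, ROBO3 had 3.15 ± 0.399 and ROBO2 0.740 ± 0.0858 CPM per kilobase. Among the Eph receptors EPHA2 came next after EPHB4, at 8.20 ± 0.212, followed by EPHA7 at 3.40 ± 0.132. SLIT1 at 0.765 ± 0.205 and SLIT3 at 0.180 ± 0.0334 CPM per kilobase were far under SLIT2.

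The first comparison asked how cells with condensed YAP-MAML2 differ from cells without the fusion. In condensed cells, 13 of the 36 tested members were lower and 2 were higher than in eGFP cells (edgeR quasi-likelihood test, adjusted p under 0.05), beside 14.1% of all genes tested lower and 13% higher. The median log2 fold change of the 36 was -0.44, against 0.0045 over all genes tested, and 30 of the 36 were below 0. Lower calls fell in every family: 5 of 13 Eph receptors (EPHA3, EPHA4, EPHA6, EPHA8 and EPHB2), 2 of 8 ephrins (EFNB1 and EFNB3), SLIT2 of 3 Slits, ROBO2 of 3 tested Robos, NTN1 of 5 netrins, and 3 of 4 tested netrin receptors (UNC5A, UNC5B and UNC5C). EPHA2 and EFNB2 were the members that were higher. Leaving out any 1 of the 15 libraries gave 11 to 17 lower members and 0 to 2 higher ones.

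In diffuse cells, which were compared with the same eGFP libraries, 11 of the 36 were lower and 1, EPHA2, was higher, beside 12.5% and 11.4% of all genes. The median of the 36 was -0.27, against 0.0063 over all genes, and 30 were again below 0. The lower members were the Eph receptors EPHA6, EPHA8, EPHB2 and EPHB3, the ephrin EFNB3, SLIT2, ROBO2, the netrins NTN1 and NTNG2, and the netrin receptors UNC5A and UNC5C. Leaving out 1 library gave 8 to 13 lower members.

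**Figure D2:**
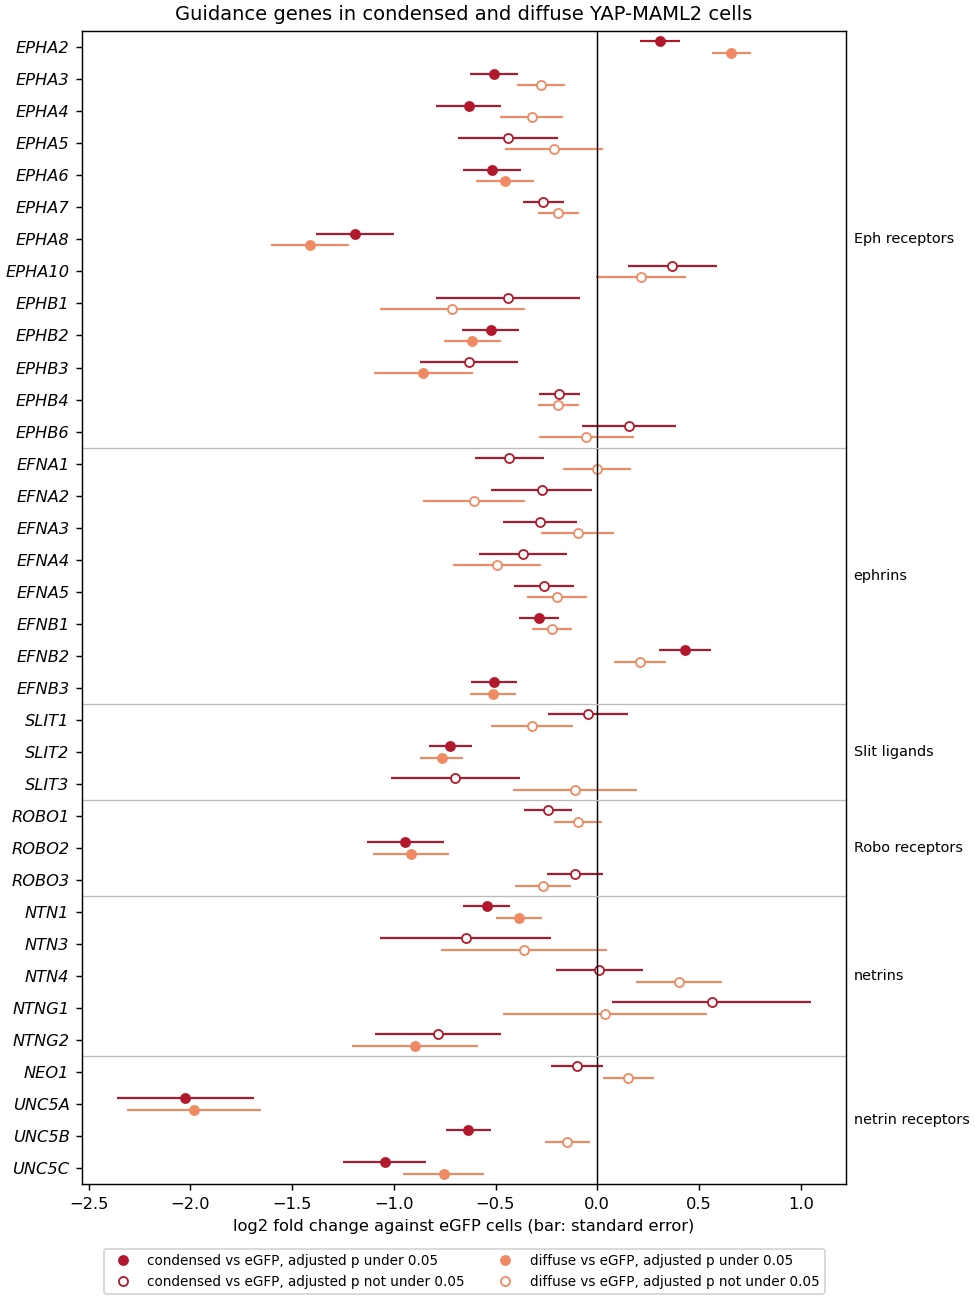
Log2 fold change of 36 members against eGFP cells in condensed (dark red) and diffuse (orange) cells, with standard errors; both use the same 3 eGFP libraries, and filled dots have an adjusted p under 0.05. UNC5A, EPHA8, ROBO2, SLIT2 and UNC5C lie far to the left in both, and EPHA2 to the right.

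UNC5A, an UNC5 receptor that can trigger cell death when netrin is absent, had the largest fold among the members and a low level. It lies on chromosome 5 of hg38 from 176810519 to 176880898 on the plus strand. Its CPM were 3.62, 3.48 and 3.83 in eGFP cells, 0.867, 0.552 and 1.29 in condensed cells and 0.980, 0.815 and 0.951 in diffuse cells. No condensed or diffuse library reached any eGFP library. On the log2 scale it fell by 2.02 in condensed cells (standard error 0.34, adjusted p = 9.67e-05) and by 1.98 in diffuse cells (0.33, 1.14e-04). In the no-mCherry cells UNC5A had 2.54, 1.41 and 1.29 CPM with DMSO and 2.28, 3.49 and 3.23 CPM with rapamycin, and the rapamycin libraries overlapped both the DMSO and the eGFP ones. Its last exon shares 30 bases with HK3 on the opposite strand.

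UNC5C, a repulsive netrin receptor on chromosome 4 from 95162504 to 95549206, minus strand, had 10.7, 13.8 and 11.7 CPM in eGFP cells. It had 6.07, 6.19 and 5.27 CPM in condensed cells and 8.53, 7.39 and 5.70 CPM in diffuse cells, all below the eGFP libraries. It fell by 1.04 on the log2 scale in condensed cells (standard error 0.20, adjusted p = 5.71e-04) and by 0.75 in diffuse cells (0.20, 0.00796), where the call was lost without diffuse replicate 3 or eGFP replicate 2. In no-mCherry cells it had 9.41, 9.90 and 5.03 CPM with DMSO and 8.50, 10.1 and 9.96 CPM with rapamycin. The low value of 5.03 came from replicate 3, the library that stood apart.

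UNC5B, the netrin receptor with the highest level and known from blood vessel branching, lies on chromosome 10 from 71212570 to 71302864, plus strand. It had 77.7, 80.6 and 95.3 CPM in eGFP cells and 54.1, 58.3 and 51.0 CPM in condensed cells. In diffuse cells it had 77.5, 76.5 and 74.8 CPM, just under the lowest eGFP library. It fell by 0.63 on the log2 scale in condensed cells (standard error 0.11, adjusted p = 2.03e-04), whereas in diffuse cells its log2 fold change was -0.15 (adjusted p = 0.356), with a 95% interval from -0.38 to 0.08. NEO1, the attractive receptor related to DCC, had log2 fold changes of -0.10 (interval -0.36 to 0.16) and 0.15 (-0.11 to 0.41).

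Among the netrins, NTN1 on chromosome 17 from 9021510 to 9244000 had 74.2, 58.4 and 66.0 CPM in eGFP cells. It had 41.2, 49.6 and 45.5 CPM in condensed cells and 55.1, 44.4 and 52.5 CPM in diffuse cells, with no overlap with eGFP cells. It fell by 0.54 on the log2 scale in condensed cells (standard error 0.11, adjusted p = 0.00114) and by 0.38 in diffuse cells (0.11, 0.0167). The call in diffuse cells was lost without diffuse replicate 2 or eGFP replicate 1. NTNG2, a membrane-anchored netrin, had means of 4.16 CPM in eGFP, 2.38 in condensed and 2.22 in diffuse cells. Its call in diffuse cells (adjusted p = 0.0369) was lost on leaving out any one of 5 of the 6 libraries compared. That call was also lost with DESeq2 and with a replicate block.

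SLIT2, the repellent ligand with the highest level of all members, lies on chromosome 4 from 20251905 to 20620561, plus strand. It had 572, 561 and 578 CPM in eGFP cells, 309, 369 and 359 in condensed cells and 348, 329 and 331 in diffuse cells. Both SPARK-OFF groups lay far below eGFP cells. SLIT2 fell by 0.72 on the log2 scale in condensed cells (standard error 0.11, adjusted p = 3.02e-05) and by 0.76 in diffuse cells (0.11, 1.63e-05). In no-mCherry cells SLIT2 had 536, 524 and 382 CPM with DMSO, under all eGFP libraries. With rapamycin those cells had 648, 582 and 643 CPM, above all eGFP libraries. SLIT1 had log2 fold changes of -0.05 and -0.32, and neither it nor SLIT3 passed the test.

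ROBO2, a Slit receptor on chromosome 3 from 75906695 to 77649964, plus strand, had 10.9, 12.4 and 13.7 CPM in eGFP cells. It had 5.25, 8.56 and 5.40 CPM in condensed cells and 5.94, 7.61 and 6.06 CPM in diffuse cells, again below all eGFP libraries. It fell by 0.94 (standard error 0.19, adjusted p = 6.73e-04) and by 0.92 (0.19, 9.70e-04) on the log2 scale. ROBO1 lies 947.3 kb away on the same chromosome and had 163, 188 and 183 CPM in eGFP cells against 128, 169 and 155 in condensed cells, which overlapped. Its log2 fold change was -0.24 in condensed cells (adjusted p = 0.129, interval -0.49 to -0.00057) and -0.10 in diffuse cells (interval -0.34 to 0.15).

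EPHA8, an Eph receptor studied mostly in the midbrain, had the largest fold among the Eph receptors. It lies on chromosome 1 from 22563489 to 22603595, plus strand, and EPHB2 begins 107.2 kb further on. Its CPM were 16.3, 14.4 and 13.5 in eGFP cells, 6.12, 5.52 and 7.78 in condensed cells and 5.25, 4.78 and 6.46 in diffuse cells. With no overlap between fusion and eGFP libraries, it fell by 1.19 on the log2 scale in condensed cells (standard error 0.19, adjusted p = 8.06e-05) and by 1.41 in diffuse cells (0.19, 1.27e-05). In no-mCherry cells EPHA8 had 12.6, 10.5 and 7.02 CPM with DMSO and 10.4, 8.40 and 11.4 CPM with rapamycin. These values lay between those of the eGFP and the SPARK-OFF groups, apart from 1 DMSO library, replicate 3, inside the condensed range.

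EPHB2, a receptor for B-class ephrins, went from a mean of 23.2 ± 2.14 CPM in eGFP cells to 16.1 ± 0.395 in condensed and 15.2 ± 1.26 in diffuse cells, a fall by 0.52 and by 0.61 on the log2 scale. Its ligand EFNB3 fell by 0.51 in both, from 32.5 ± 1.87 CPM to 22.8 ± 1.71 and 22.7 ± 0.928 CPM. EPHA4, which binds ephrins of both classes, fell by 0.63 in condensed cells (adjusted p = 0.00463) and had -0.32 in diffuse cells (0.136). EPHA3 likewise fell by 0.51 in condensed cells and had -0.28 in diffuse cells (adjusted p = 0.0928). EPHA6 fell by 0.52 in condensed and by 0.45 in diffuse cells. Its call was lost without condensed replicate 2 or, in diffuse cells, without any one of 4 libraries or without the filter. EPHB3 fell by 0.86 in diffuse cells (adjusted p = 0.0130), a call lost without diffuse replicate 3. The ephrin EFNB1 fell by 0.29 in condensed cells (adjusted p = 0.0336), and leaving out any one of 5 of the 6 libraries compared removed its call. Dropping the filter on low counts removed that call too. The loss of a call from one group to the other does not show a difference between condensed and diffuse cells. None of EPHA3, EPHA4, EPHB3 and EFNB1 passed the direct test given below.

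EPHA2, a receptor for A-class ephrins often raised in carcinomas, lies on chromosome 1 from 16124337 to 16156069, minus strand. It had 34.5, 33.0 and 34.4 CPM in eGFP cells, 42.1, 41.2 and 42.7 CPM in condensed cells and 56.7, 53.4 and 50.8 CPM in diffuse cells. The 3 groups did not overlap. EPHA2 rose by 0.31 on the log2 scale in condensed cells (standard error 0.10, adjusted p = 0.0235) and by 0.66 in diffuse cells (0.10, 3.55e-05). The call in diffuse cells held under the alternatives tried, while that in condensed cells was lost without condensed replicate 1 or 3 or eGFP replicate 2 or 3. The condensed call was also lost without the filter on low counts and under the study's DEG thresholds, given below. The no-mCherry libraries lay in or under the eGFP range, with 33.4, 31.6 and 26.3 CPM with DMSO and 32.8, 29.6 and 34.0 CPM with rapamycin.

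EFNB2, the ligand that marks arterial endothelium and binds EPHB4, lies on chromosome 13 from 106489745 to 106535662, minus strand. It had 13.4, 16.7 and 18.1 CPM in eGFP cells, 18.3, 23.4 and 23.6 in condensed cells and 17.8, 19.0 and 19.0 in diffuse cells. Condensed libraries were barely clear of eGFP ones (log2 fold change 0.43, standard error 0.13, adjusted p = 0.0140), and the call was lost without condensed replicate 2 or 3 or eGFP replicate 1. In diffuse cells the log2 fold change was 0.21 (adjusted p = 0.248) and the libraries overlapped. Of the EFNB2 exon bases, 36.4% are shared with a long noncoding RNA on the opposite strand, and reads from both cannot be told apart if counting ignored the strand, which the sources used here do not give. EPHB4 had 84.9 ± 5.06 CPM in eGFP and 74.6 ± 1.29 CPM in condensed cells (log2 fold change -0.19, adjusted p = 0.182).

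**Figure D3:**
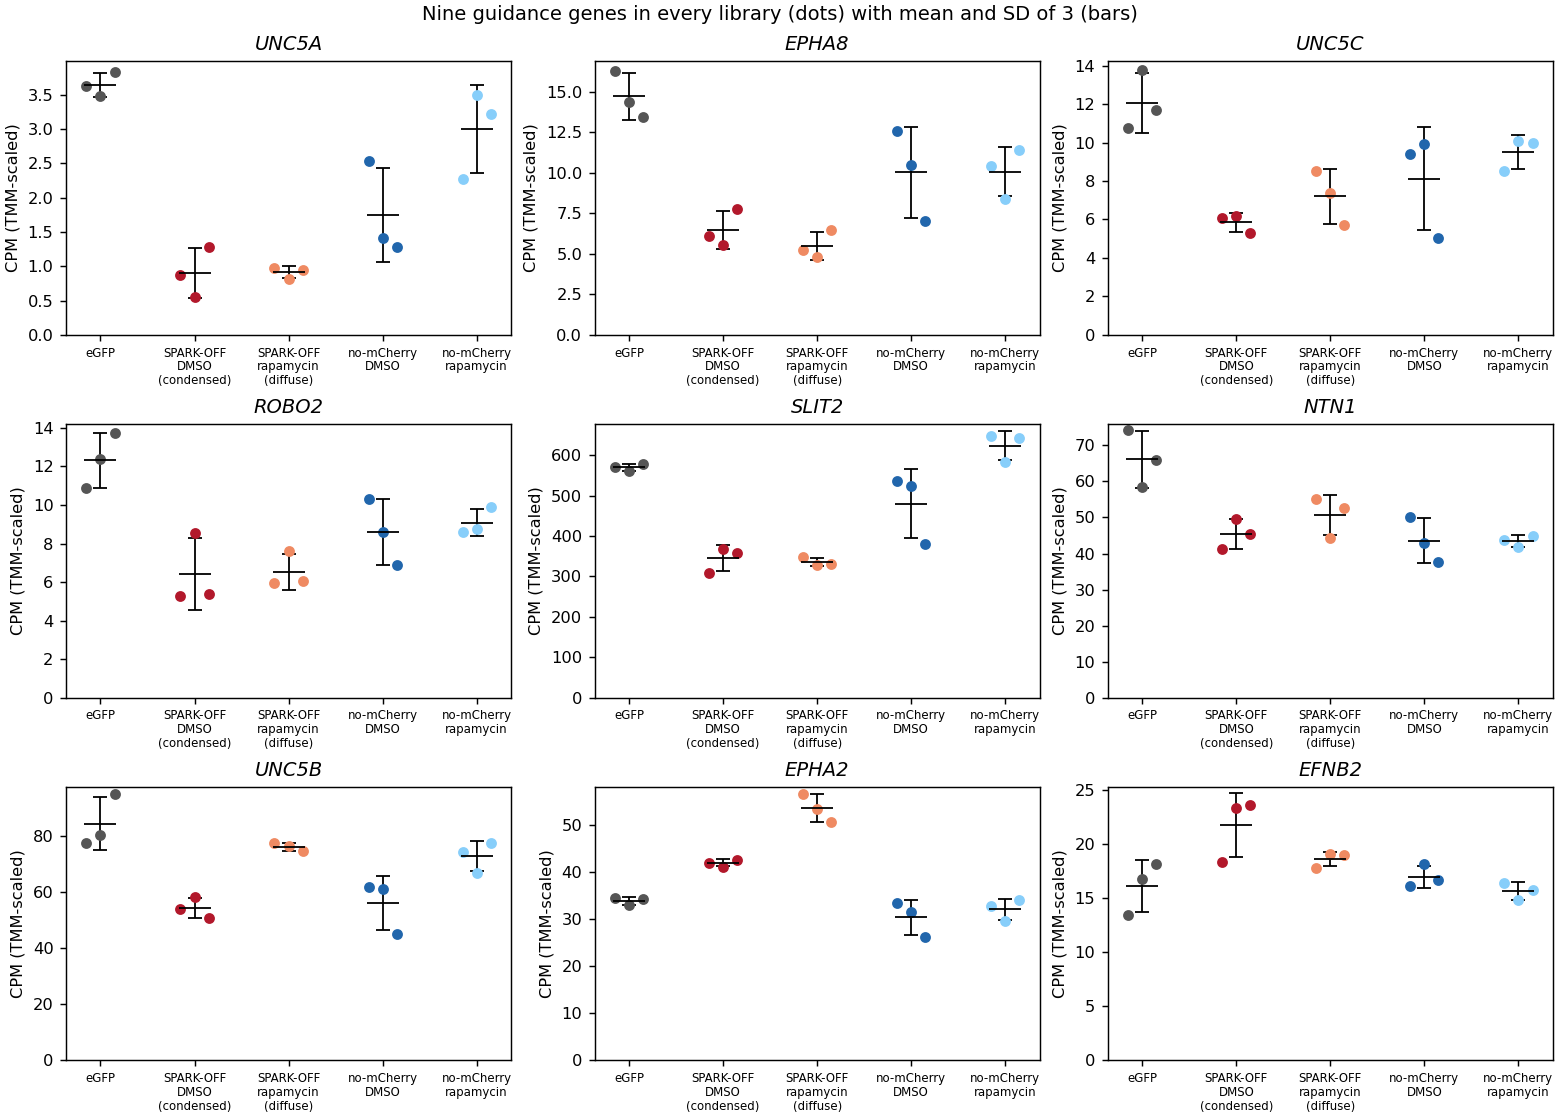
CPM of 9 members in each library (dots), with the mean and SD of 3 (bars), in the 5 groups. UNC5A, EPHA8, ROBO2 and SLIT2 are low in both SPARK-OFF groups, UNC5B has its lowest values with DMSO in both fusion lines, and EPHA2 is high in SPARK-OFF cells.

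The A-class ephrins did not pass the test in any comparison. In condensed cells their log2 fold changes ran from -0.43 for EFNA1 to -0.26 for EFNA5. EFNA3 and EFNA4 are 9.3 kb apart and share 43.88% and 15.04% of their exon bases with the readthrough gene EFNA4-EFNA3 on the same strand, so their counts are less certain than those of the other members. EPHA6 shares 10.98% of its exon bases with a noncoding RNA on the same strand.

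Other genes of the same pathways were taken from a list of 62 partners, of which 58 were tested. Among them are the GTPase regulators that Eph and Robo receptors act through. The list was written with earlier results of these data known, so its counts are a description and no independent check. In condensed cells 24 were lower and 3 higher than in eGFP cells, beside 14.1% and 13% of all genes tested, with a median of -0.31 against 0.0045 over all genes. In diffuse cells 15 were lower and 3 higher, beside 12.5% and 11.4%, with a median of -0.22 against 0.0063. By system, 8 of 21 Eph and ephrin partners, 7 of 17 Slit and Robo partners and 9 of 20 netrin partners were lower in condensed cells. NGEF, the exchange factor that binds EphA receptors, fell by 0.99 in condensed and by 0.83 in diffuse cells. SRGAP3, which binds Robo receptors and inactivates Rac, fell by 1.24 and by 0.76, and RGMA, a ligand of neogenin, by 1.36 and by 0.92. FLRT3, an UNC5 ligand, fell by 0.62 and by 0.65, but the second fusion line went the other way. Its no-mCherry libraries had 28.7, 27.9 and 26.7 CPM with DMSO and 30.7, 31.3 and 34.3 CPM with rapamycin. All of these lay above the eGFP libraries, at 24.9, 23.1 and 23.8 CPM. SOS2, a Ras exchange factor linked to Robo signalling, and YES1, a Src family kinase, were higher in both groups, by 0.37 and 0.35 in condensed cells. Leaving out any one of 3 libraries removed the SOS2 call in either group, and any one of 5 the YES1 call in diffuse cells.

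The next comparison asked what changes when the condensates dissolve, in diffuse against condensed cells. With edgeR, 0 of the 36 members were higher and 0 lower, beside 0.0381% (7 genes) and 0.0924% (17 genes) of all genes tested. At an unadjusted p under 0.05, 3 members were higher and 0 lower, beside 3.32% and 2.15% of all genes tested. DESeq2 called 1 higher and 0 lower, beside 0.135% and 0.153% of the genes to which it gave an adjusted p. The 3 were UNC5B, EPHA2 and EFNA1. The median of the 36 was 0.05, against -0.008 over all genes tested.

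UNC5B was the member that DESeq2 called. Its diffuse libraries, at 77.5, 76.5 and 74.8 CPM, lay above the condensed ones at 54.1, 58.3 and 51.0 CPM, and the log2 difference was 0.48 (standard error 0.11, interval 0.25 to 0.71). The adjusted p was 0.102 by edgeR over all libraries and 0.0142 by DESeq2. It was 0.00495 by edgeR without replicate 3 of the no-mCherry cells with DMSO, a library outside this comparison. By edgeR it was also 0.00386 in a fit of only the groups compared and 0.00784 without the filter. UNC5B did not pass under the other alternatives tried. EPHA2 differed by 0.35 (standard error 0.10, interval 0.15 to 0.55, adjusted p = 0.290). MAML2, read mostly from the transgene, also had a log2 difference of 0.38 between these groups (adjusted p = 0.209). That is RNA, while for protein the paper reports an unchanged YAP-MAML2 level on dissolution, by Western blot and total fluorescence. The part of the MAML2 transcript in the values of UNC5B and EPHA2 was not tested.

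For the members with the largest falls, the direct differences were small or uncertain. SLIT2 differed by -0.04 with an interval from -0.26 to 0.18, and ROBO2 by 0.03 with an interval from -0.37 to 0.43. EPHA8 differed by -0.22 (-0.64 to 0.20) and UNC5C by 0.29 (-0.14 to 0.72). UNC5A, at its low level, differed by 0.04 with a wide interval from -0.72 to 0.81.

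The no-mCherry line shows rapamycin without dissolution. With edgeR, 0 of the 36 members were higher and 0 lower with rapamycin than with DMSO, beside 0.451% and 1.17% of all genes tested. At an unadjusted p under 0.05, 3 were higher (SLIT2, UNC5A and UNC5B) and 1 lower (EFNA3), beside 6.63% and 8.23% of all genes tested. DESeq2 called 2 higher, SLIT2 and UNC5B, and 0 lower, beside 1.45% and 3.91%. Of the 58 partner genes tested, 1 was lower by edgeR, beside the 1.17% of all genes. It was SIAH2, a ubiquitin ligase that targets DCC for degradation, which fell by 0.61 on the log2 scale (adjusted p = 0.0207). Its call was lost in a fit of only these groups, and without rapamycin replicate 1 or 3 or DMSO replicate 3.

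UNC5B had 62.1, 61.3 and 45.1 CPM with DMSO and 74.4, 67.0 and 77.6 CPM with rapamycin in the no-mCherry cells. The groups did not overlap, and the log2 difference was 0.38 (standard error 0.11, interval 0.15 to 0.61, adjusted p = 0.0875 by edgeR and 0.0362 by DESeq2). In both lines each rapamycin library of UNC5B lay above each DMSO library, and the difference between the responses was 0.11 with an interval from -0.22 to 0.43 (adjusted p = 0.924). SLIT2 had 536, 524 and 382 CPM with DMSO and 648, 582 and 643 CPM with rapamycin, a log2 difference of 0.38 (standard error 0.11, adjusted p = 0.0728 by edgeR and 0.0181 by DESeq2). With edgeR SLIT2 passed without replicate 2 of the DMSO libraries (adjusted p = 0.0424) and without the filter (0.0185), where UNC5B also passed (0.049). Neither passed by edgeR without DMSO replicate 3, the library that stood apart, which gave the low values of 45.1 and 382 CPM.

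**Figure D4:**
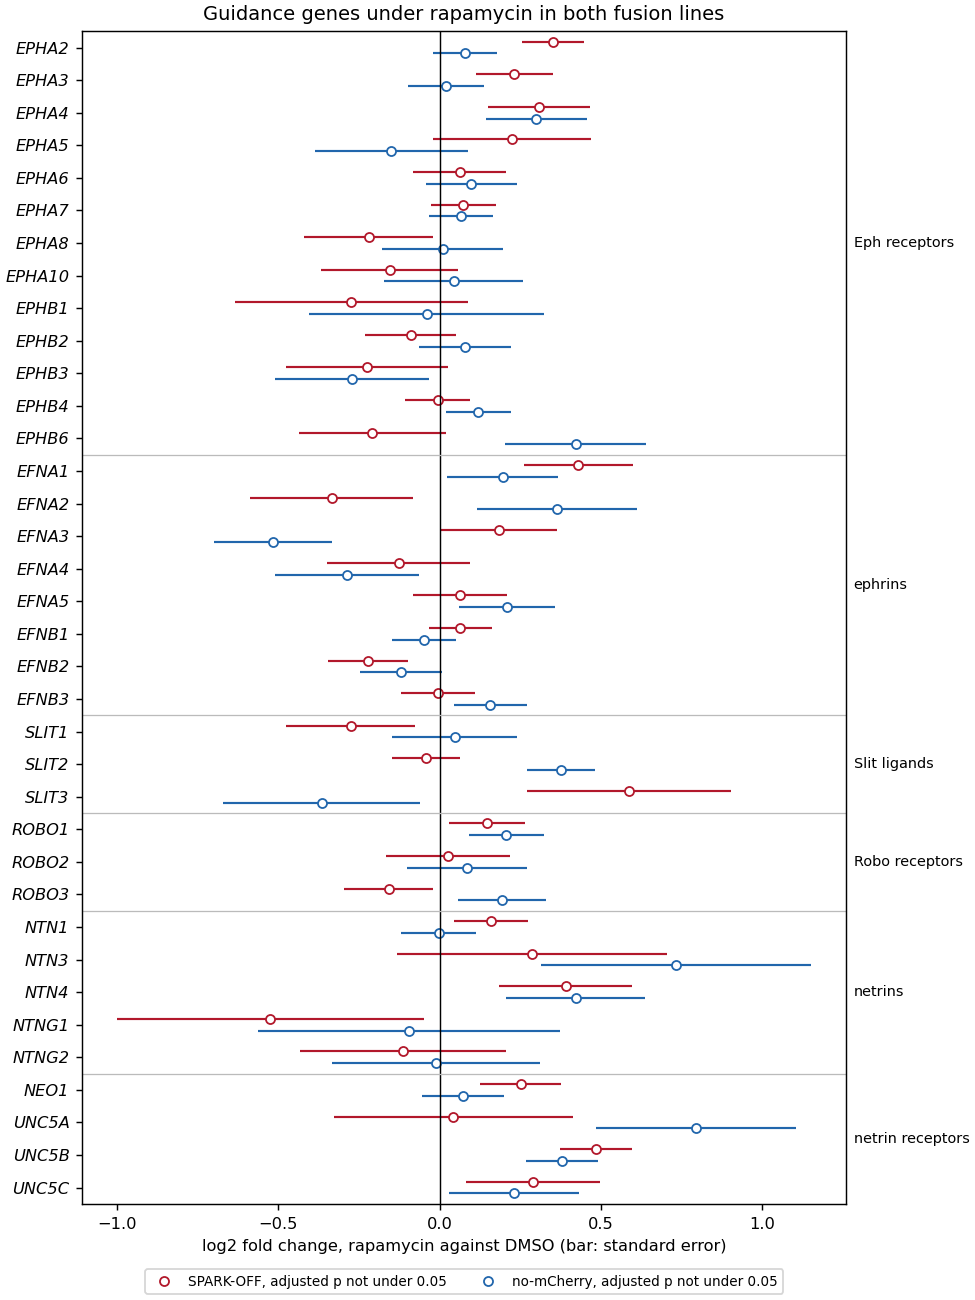
Log2 fold change of rapamycin against DMSO for 36 members, in SPARK-OFF cells (red) and in no-mCherry cells (blue), with standard errors; open dots have an adjusted p of 0.05 or more. UNC5B lies to the right in both lines, at 0.48 and 0.38, while SLIT2 is near 0 in SPARK-OFF cells and at 0.38 in no-mCherry cells.

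The interaction asked whether rapamycin acted differently where it dissolved the condensates. With edgeR, 0 of the 36 members differed in either direction, beside 0.0272% of all genes with a larger response in SPARK-OFF cells and 0.0707% with a smaller one. At an unadjusted p under 0.05, 2 members had a larger response, EFNA3 and SLIT3, and 1 a smaller one, SLIT2, beside 3.71% of all genes tested in each direction. DESeq2 called 0 in each direction, beside 0.404% and 0.288%. The SLIT2 response differed by -0.42 (standard error 0.15, interval -0.73 to -0.11, adjusted p = 0.502). This value includes the low SLIT2 level of no-mCherry DMSO replicate 3, the library that stood apart. EPHA2 differed by 0.27 (interval -0.01 to 0.56, adjusted p = 0.692).

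The fusion in the second line was also set against eGFP cells, the same 3 libraries as above. In no-mCherry cells with DMSO, 0 of the 36 members were higher and 4 were lower (edgeR), beside 7.08% and 6.41% of all genes tested. At an unadjusted p under 0.05, 0 were higher and 13 lower, beside 15.3% and 14.1% of all genes tested. DESeq2 called 0 higher and 6 lower, beside 9.67% and 8.98%. The median was -0.25, against 0.0057 over all genes. The 4 were NTN1, which fell by 0.60 (standard error 0.12, adjusted p = 0.0020), UNC5B by 0.59 (0.11, 0.00186), UNC5A by 1.07 (0.31, 0.0253) and EPHA8 by 0.56 (0.19, 0.0491). NTN1 had 50.2, 43.0 and 37.6 CPM with DMSO and 43.8, 41.7 and 44.8 CPM with rapamycin, all under the lowest eGFP library. The calls of NTN1 and UNC5B held without any single library, while that of EPHA8 was lost in 14 of 15 such fits and that of UNC5A in 4. Without replicate 1 of these DMSO libraries 10 members were lower, and without replicate 3, the one that stood apart, 2 were. Of the 58 partner genes, 10 were lower and 0 higher, among them NGEF at -0.73 and RGMA at -0.70, and none of these calls remained in a fit of only the groups compared.

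The last comparison set the fusion lines against each other under DMSO. In condensed SPARK-OFF cells 1 of the 36 members, EPHA2, was higher than in no-mCherry cells and 2 were lower, EPHA7 and SLIT2, beside 3.78% and 3.25% of all genes tested. DESeq2 called 1 higher and 4 lower, the others being EPHA3 and EPHA8, beside 5.69% and 4.93%. EPHA2 differed by 0.47 (standard error 0.10, adjusted p = 0.00527) and SLIT2 by -0.47 (0.11, 0.0079). EPHA7, a receptor for A-class ephrins on chromosome 6 from 93240020 to 93419687, had 43.9, 43.1 and 53.0 CPM in condensed cells and 70.4, 55.7 and 62.1 CPM in no-mCherry cells with DMSO. Its log2 difference was -0.43 (standard error 0.10, adjusted p = 0.0118), and the eGFP libraries, at 54.4, 58.5 and 55.2 CPM, lay above all condensed libraries, with 1 of them inside the no-mCherry range. The EPHA7 call was lost without condensed replicate 1 or 2 or no-mCherry replicate 1, and the SLIT2 call without no-mCherry replicate 1. Fitting only the libraries of the groups compared ended all 3 calls, with adjusted p of 0.0576 for EPHA2, 0.0899 for SLIT2 and 0.0911 for EPHA7 (edgeR). MAML2 was higher in SPARK-OFF cells by 0.91 and YAP1 by 0.63 on the log2 scale, so the lines also differed in fusion transcript, and its part in these differences was not tested.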

How the data were processed

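The authors' deposited table gives raw counts per gene for 15 libraries, without normalization. The study's methods name fastp for the raw reads, STAR with default options for mapping to hg38, and edgeR for the counts. FastQC and HTSeq also stand in the submitters' processing notes, which give no versions. For the annotation and the strand setting of the counting, nothing was given in the sources used here. If strand was ignored, reads of overlapping genes on opposite strands were pooled.

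Symbols and hg38 coordinates came from GENCODE v44, which matched 61369 of 61533 identifiers. Counts were fitted in R 4.3.3 with edgeR 4.0.16 (filterByExpr, TMM, quasi-likelihood, 1 fit over the 5 groups) and adjusted by Benjamini-Hochberg over 18391 genes. Scaling factors were 0.901 to 1.05 and the common biological coefficient of variation was 0.111. A call needs an adjusted p under 0.05. Standard errors and 95% intervals are Wald values. CPM use TMM-scaled library sizes, and values after ± are SDs of 3 libraries. Levels per length divide CPM by the union of annotated exons. Promoter windows came from RefSeq (GRCh38.p14). Steps were tested on simulated counts.

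Groups came from the sample labels. Members and lists were chosen with earlier results of these data known. Values in each library were set by rule for members called with a log2 fold change of 1 or more in either direction against eGFP cells in condensed or diffuse cells (UNC5A, EPHA8 and UNC5C) or called in a rapamycin comparison (0 members). UNC5B, NTN1, SLIT2, ROBO1, ROBO2, EPHA2, EFNB2 and EPHA7 were added after their values were seen, and so were the 4 promoters printed. Alternatives were other size factors, no filter, a replicate block, fits on only the groups compared, the study's DEG thresholds (P under 0.01, log2 fold change of 0.58 or more in either direction, FDR under 0.1), each library left out, and DESeq2 1.42.0. Same-numbered libraries did not deviate together (correlations of -0.140 to 0.0992), so numbers were not used as pairs.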

Additional observations from a re-analysis of the deposited data

Results flagged for a closer look

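Members that differed between the fusion lines under the same vehicle were picked out for a closer look, because the test of the difference itself, SPARK-OFF against no-mCherry cells with DMSO, passed an adjusted p of 0.05 (edgeR). EPHA2 was higher in SPARK-OFF cells by 0.47 on the log2 scale, with every SPARK-OFF library above every no-mCherry library. EPHA7 had a difference of -0.43 and SLIT2 of -0.47, each with every SPARK-OFF library lower. These are 1 higher and 2 lower of 36 members, beside 3.78% and 3.25% of all genes tested. A fit of only the groups compared ended all 3 calls, and the fusion transcript also differed between the lines.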

How the results depend on the processing

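No log2 fold change of a tested member changed sign against a called value. In lower calls, condensed cells had 12 to 14 members and diffuse cells 10 to 12 under size factors of another kind, no filter, the replicate block, fits of only the groups compared and DESeq2. The study's DEG thresholds left 0 higher and 7 lower members in condensed cells, 1 higher and 12 lower partners there, and 1 higher and 8 lower partners in diffuse cells. They left 3 lower partners in no-mCherry cells, and 0 higher and 1 lower member and 3 lower partners between the lines.

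Without the filter, 1 member was higher in condensed cells, 1 in diffuse against condensed, 2 with rapamycin alone, and 1 partner was higher in no-mCherry cells and 2 between the lines. Fits of only the groups compared gave 1 higher member in diffuse against condensed, 2 lower in no-mCherry cells, and 0 higher and 0 lower between the lines. For partners they gave 5 higher in diffuse cells, 0 lower with rapamycin alone, 0 lower in no-mCherry cells, and 0 higher and 1 lower between the lines. DESeq2 gave 1 higher member in diffuse against condensed, 2 with rapamycin alone and 4 lower between the lines. The replicate block gave 13 lower members in condensed and 10 in diffuse cells and 0 higher partners between the lines. It cost NTNG2 its call in diffuse cells and EPHA8 its call in no-mCherry cells. Same-numbered libraries share only a number, and 1 of 15 libraries correlated best with its own number. The cause of these shifts was not tested.

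Leaving out 1 library gave 0 to 2 higher members in condensed cells (0 without condensed replicate 3), 0 to 1 in diffuse against condensed (1 without no-mCherry DMSO replicate 3), 0 to 1 with rapamycin alone, 2 to 10 lower in no-mCherry cells, and 1 to 2 higher and 0 to 5 lower between the lines (0 without no-mCherry DMSO replicate 1, 5 without replicate 3). For partners the ranges were 1 to 5 higher in condensed and in diffuse cells, 0 to 1 lower with rapamycin alone, 0 to 1 higher and 3 to 16 lower in no-mCherry cells, and 0 to 1 higher and 2 to 8 lower between the lines.

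Members under about 5 CPM, such as UNC5A, have the widest intervals, and with 3 libraries a group small differences in them were not detectable at this depth.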
